A study of Mus musculus with 10 samples.

Results

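The paraxial mesoderm and somite regulators described here are 8 mouse genes that encode transcription factors: Meox1, Meox2, Tcf15, Foxc1, Foxc2, Mesp2, Tbx18 and Pax1. They were taken by gene symbol from the deposited table of RNA levels, where all 8 were found among 21937 gene symbols. The table gives RPKM, reads scaled by the length of the transcript and the size of the library, so levels of different genes are per length. It holds 10 libraries of mouse embryonic stem (ES) cells of C57BL/6 background under differentiation, 1 library for each condition and day and no replicates. In SFEB culture, where aggregates floating in serum-free medium are led towards neuroectoderm, the libraries were Tet3 knockout cells with Dkk, Tet3 knockout cells and wild-type cells, each on day 6 and day 10. Tet3 encodes an enzyme that oxidises 5-methylcytosine in DNA, and the knockout ES cells had lost a floxed Tet3 exon after transient expression of Cre recombinase. Dkk is a secreted protein that blocks Wnt ligands from acting on their receptors, and here it was given to knockout cells. In medium with fetal bovine serum (FBS), which does not favour neural fates, the libraries were Tet3-overexpressing cells and control cells, each on day 4 and day 7. The sources used here give neither the dose of Dkk nor the means of overexpression, and the labels name no separate lines, so genotype and line cannot be told apart.

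Paraxial mesoderm is the tissue on either side of the neural tube that forms the somites, the blocks from which vertebrae, ribs, skeletal muscle and dermis of the trunk arise. Its cells pass through the presomitic mesoderm, where a segmentation clock run by Notch, Wnt and Fgf signals sets the borders of the next somite. Wnt signals hold the progenitors of the tail bud and promote paraxial mesoderm at the expense of neural tissue, and SFEB culture is in wide use because it yields mainly neural cells.

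Estimated depth was 10200000 to 11300000 reads in 5 of the 6 SFEB libraries, 17400000 to 44000000 in the 4 FBS libraries, and 37000000 in the day 10 library of the knockout with Dkk, and 11028 to 12152 genes reached 1 RPKM in a library. Tet3 stood at 7.64 RPKM in the knockout with Dkk, 6.59 in the knockout and 8.11 in wild type on day 6, and at 13.1 RPKM in the knockout with Dkk, 14.3 in the knockout and 10.2 in wild type on day 10. These are values of the whole gene and do not check the loss of 1 exon. In FBS culture Tet3 stood at 12.5 RPKM with overexpression against 0.96 in control on day 4, and at 14.1 against 5.87 RPKM on day 7. The neuroectoderm markers Sox1, Pax6, Nes, Hes5 and Otx2 were all above 1 RPKM in the 6 SFEB libraries. In FBS culture the 5 ES cell markers Pou5f1, Nanog, Zfp42, Esrrb and Sox2 were all above 1 RPKM in the 4 libraries, with a summed level of 1424 RPKM with overexpression against 1257 in control on day 4, and 1033 against 247 RPKM on day 7. These are bulk libraries, in which fewer cells of a type and less RNA per cell cannot be told apart.

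Over the 10 libraries the 8 genes followed 2 patterns. Meox1, Meox2, Foxc1, Foxc2, Tbx18 and Pax1 were each highest in the knockout on day 6, low in the knockout with Dkk and in wild type, and at 2.55 RPKM or less in FBS culture. Their Pearson correlations with one another, on log2(RPKM + 0.5), lay between 0.84 and 0.98. Tcf15 and Mesp2 also had their highest SFEB level in the knockout on day 6. In FBS culture Tcf15 reached 38.1 RPKM and was higher in overexpressing cells on both days. Mesp2 stayed between 0.21 and 0.78 RPKM there, below the day 7 control levels of Meox1 (2.55 RPKM), Foxc1 (2.41) and Foxc2 (1.60). Its day 4 levels were close, at 0.78 RPKM with overexpression against 0.64 in control. Tcf15 and Mesp2 correlated with each other at 0.93 and with the other 6 genes at 0.13 to 0.44. All of these correlations are over 10 libraries that share cultures and days, and they are given as a description. Mesp2 stood at 1.05 RPKM or less in every library. Meox2, Tbx18 and Pax1 stood at 0.37 RPKM or less outside the knockout libraries without Dkk. The correlations of these genes thus rest on few libraries or on values near the floor.

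**Figure D1:**
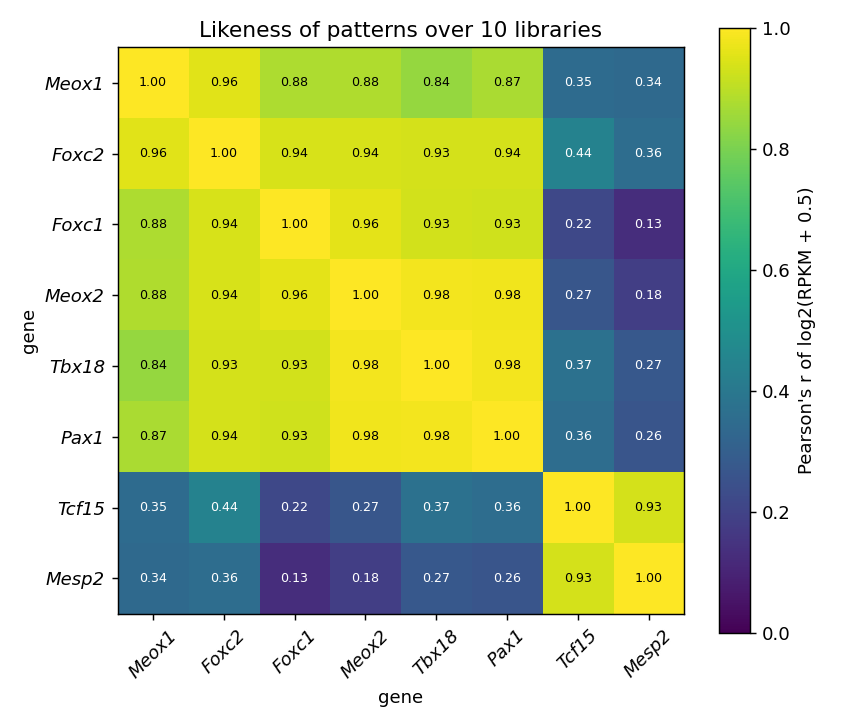
Pearson's r between the log2(RPKM + 0.5) values of each pair of the 8 genes over all 10 libraries, with yellow for values near 1 and blue for values near 0. Meox1, Foxc2, Foxc1, Meox2, Tbx18 and Pax1 form a block of 0.84 to 0.98, and Tcf15 and Mesp2 form a pair at 0.93 that correlates with the block at 0.13 to 0.44.

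The promoters of the genes with the most alike patterns, Meox2, Tbx18 and Pax1 (0.98 for each pair), are shown beside that of Mesp2, which stood apart, so that their letters can be compared. Each window runs from 250 bases before to 50 bases after the gene's start, on the gene's own strand, and comes from RefSeq on build GRCm38.p6. The window of Meox2 is chr12:37108290-37108589 (plus strand), that of Tbx18 chr9:87731211-87731510 (minus strand), that of Pax1 chr2:147364744-147365043 (plus strand) and that of Mesp2 chr7:79810477-79810776 (plus strand). Capitals mark matches to a searched motif.
Meox2: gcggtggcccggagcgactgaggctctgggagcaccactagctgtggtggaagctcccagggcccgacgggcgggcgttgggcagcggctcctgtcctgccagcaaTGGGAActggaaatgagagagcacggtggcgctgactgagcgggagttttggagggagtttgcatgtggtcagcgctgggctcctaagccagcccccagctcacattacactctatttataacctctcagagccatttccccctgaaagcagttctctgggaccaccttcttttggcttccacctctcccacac
Tbx18: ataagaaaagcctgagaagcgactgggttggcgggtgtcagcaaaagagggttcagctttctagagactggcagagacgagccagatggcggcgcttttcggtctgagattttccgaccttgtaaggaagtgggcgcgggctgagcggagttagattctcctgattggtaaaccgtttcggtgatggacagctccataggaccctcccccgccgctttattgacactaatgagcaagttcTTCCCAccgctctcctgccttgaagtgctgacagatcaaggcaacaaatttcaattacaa
Pax1: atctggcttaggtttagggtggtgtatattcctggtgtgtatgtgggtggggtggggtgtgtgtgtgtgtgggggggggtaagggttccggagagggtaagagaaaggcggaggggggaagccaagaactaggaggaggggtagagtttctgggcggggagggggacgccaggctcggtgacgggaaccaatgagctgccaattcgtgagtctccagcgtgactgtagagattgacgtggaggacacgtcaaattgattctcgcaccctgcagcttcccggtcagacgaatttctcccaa
Mesp2: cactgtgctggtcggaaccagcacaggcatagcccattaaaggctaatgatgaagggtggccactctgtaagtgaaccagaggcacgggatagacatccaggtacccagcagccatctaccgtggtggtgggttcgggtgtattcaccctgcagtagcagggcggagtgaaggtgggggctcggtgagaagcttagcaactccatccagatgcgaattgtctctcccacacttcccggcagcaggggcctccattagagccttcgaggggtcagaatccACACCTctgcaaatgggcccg
Of the 8 genes, 5 were in the promoter table: these 4 and Foxc1, on chromosome 13. Meox1, Tcf15 and Foxc2 are named only. The windows were searched on both strands for TCAAAG, bound by TCF/LEF factors of the Wnt pathway, AGGTGT, bound by T-box factors, TGGGAA, bound by RBPJ of the Notch pathway, and TTTATG, bound by Cdx factors, and no matches overlapped. With the first base of the gene as position 0, Meox2 held TGGGAA from position -144, Tbx18 its reverse complement TTCCCA from position -10, and Foxc1 TTCCCA from position 6. Mesp2 held ACACCT, the reverse complement of the T-box motif, from position 29, and Pax1 held none of the 4. Of 32851 windows of the same length, 25.6% held the RBPJ motif, 13.7% the T-box motif, 16% the TCF/LEF motif and 11.9% the Cdx motif, so that matches of this kind are common and are a description only. GC content was 60.7% in Meox2, 51.7% in Tbx18, 57.3% in Pax1, 57.7% in Mesp2 and 67.3% in Foxc1, against a median of 52.7% over all windows.

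The first comparison, knockout against wild type in a culture that leads to neuroectoderm, asked what differs when Tet3 is lost. On day 6 all 8 genes had higher levels in the knockout, and 5 of them were above 4 RPKM there while none was above 0.27 RPKM in wild type. A gene entered the counts when it reached 1 RPKM in at least 1 library of its culture, and it was counted as higher or lower at 2-fold or more on the log2(RPKM + 0.5) scale. The 8 genes passed this filter in SFEB culture through the knockout libraries (Meox1 and Foxc1 also through those with Dkk), so that they had to differ, and the counts are a description. By that rule 8 of 8 were higher on day 6 (median log2 ratio 3.72), against 4.88% of the 12912 genes compared (median 0), and 7 of 8 on day 10 (median 1.90), against 8.26% (median 0.06). With 1 library a condition, the intervals given below are 95% Clopper-Pearson intervals of the read ratio from estimated reads and cover counting error only.

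Mesp2 encodes the basic helix-loop-helix factor that sets the segment border in the anterior presomitic mesoderm. It was the lowest of the 8 genes in the knockout on day 6, at 1.05 RPKM against 0.05 in wild type, from about 21 against 1 reads (21.0-fold, interval 3.34 to 860). On day 10 it stood at 0.14 RPKM in both, from about 3 reads each, so that no fold is given. Mesp2 was thus seen above a handful of reads in the knockout on day 6 alone among these 4 libraries.

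Foxc1 and Foxc2 encode forkhead factors with shared roles in specifying paraxial mesoderm and forming somites, and both also act in vessels, kidney and head mesenchyme. Foxc1 was at 13.6 RPKM in the knockout against 0.25 in wild type on day 6 (54.3-fold, interval 32.5 to 96.8) and at 9.07 against 0.66 RPKM on day 10 (13.7-fold, interval 10.0 to 19.0). Foxc2 was at 21.3 RPKM in the knockout against 0.11 in wild type on day 6, from about 597 against 3 reads (193-fold, interval 67.1 to 958), and at 3.69 against 0.23 RPKM on day 10 (16.0-fold, interval 7.65 to 41.5). Both genes were high in the knockout on both days, Foxc2 above Foxc1 on day 6 and below it on day 10.

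Tcf15, also called paraxis, encodes the basic helix-loop-helix factor needed for somites to become epithelial, and it is also known in ES cells that are about to differentiate. It was at 44.9 RPKM in the knockout against 0.11 in wild type on day 6, from about 453 against 1 reads (408-fold, interval 80.1 to 17757). On day 10 it was at 1.08 RPKM in the knockout against 0.19 in wild type, from about 12 against 2 reads (5.68-fold, interval 1.38 to 57.2). The knockout thus held far less Tcf15 on day 10 than on day 6.

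Meox1 and Meox2 encode homeobox factors with overlapping roles in the sclerotome and dermomyotome, the parts of the somite that give vertebrae and muscle. Meox1 was at 162 RPKM in the knockout against 0.27 in wild type on day 6, from about 3708 against 6 reads (598-fold, interval 281 to 1669), which put it at rank 1 of the 12912 genes by log2 ratio. On day 10 it was at 4.22 against 0.60 RPKM (7.03-fold, interval 4.08 to 13.1). Meox2 was far lower per length, at 4.49 RPKM in the knockout against 0.04 in wild type on day 6, from about 109 against 1 reads (112-fold, interval 19.0 to 4302). It was at 2.69 RPKM in the knockout against 0.04 in wild type on day 10, from about 69 against 1 reads (67.3-fold, interval 12.4 to 2866).

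Tbx18 encodes a T-box factor of the anterior part of each somite and is also found in epicardium and limb. It was at 2.03 RPKM in the knockout on day 6, from about 98 reads, and listed at 0 in wild type. On day 10 it was at 1.48 RPKM in the knockout against 0.11 in wild type (13.5-fold, interval 5.68 to 36.4). Pax1, a paired-box factor of the ventral sclerotome and the pharyngeal pouches, was at 3.08 RPKM in the knockout against 0.07 in wild type on day 6, from about 84 against 2 reads (44.0-fold, interval 11.2 to 349), and at 1.56 against 0.27 RPKM on day 10 (5.78-fold, interval 2.72 to 14.3). Both genes of the formed somite were thus detected at low levels per length, higher in the knockout on either day.

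**Figure D2:**
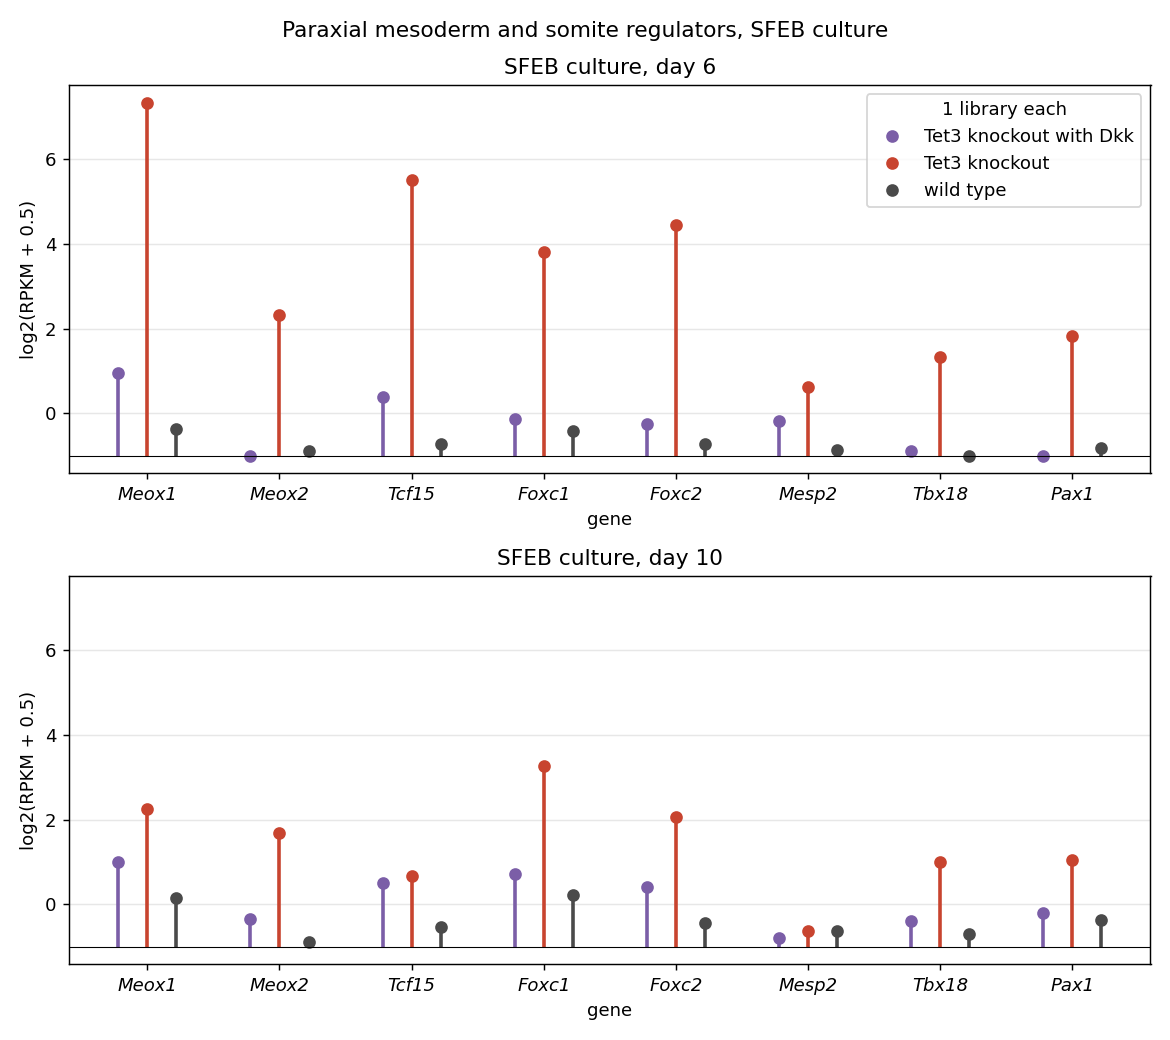
Levels of the 8 genes in SFEB culture as log2(RPKM + 0.5), with day 6 in the upper and day 10 in the lower panel. Each point is 1 library (purple, Tet3 knockout with Dkk, red, Tet3 knockout, grey, wild type), and stems start at the value of a gene listed at 0. The knockout is the highest library for all 8 genes on day 6 and for 7 on day 10, where Mesp2 is at 0.14 RPKM in knockout and wild type alike.

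Several sums of markers of other cell types that can carry some of these genes were also higher in the knockout. Summed levels of 5 endothelial markers were 6.70 RPKM in the knockout against 2.03 in wild type on day 6 and 12.6 against 4.30 RPKM on day 10, with Emcn listed at 0 in wild type on day 6. Kdr gave 4.58 RPKM of the knockout sum on day 6, against 0.41 in wild type, while Cdh5 ran the other way, at 0.51 against 0.93 RPKM. Of these 5 markers, 1 reached 1 RPKM in the knockout and 0 in wild type on day 6, and 4 and 2 on day 10. Sums of 5 cardiac and proepicardial markers were 4.40 against 0.28 RPKM on day 6, and Tnnt2 gave 2.92 of the knockout value. On that day 1 marker in the knockout and 0 in wild type reached 1 RPKM, Upk3b was listed at 0 in both, and Nkx2-5 and Tcf21 at 0 in wild type. On day 10 these sums were 30.8 RPKM in the knockout, of which Tnnt2 gave 24.4, against 1.94 in wild type, with 2 and 1 markers at 1 RPKM and Nkx2-5 listed at 0 in wild type. Sums of 5 neural crest markers were 13.6 against 2.47 RPKM on day 6, and Ets1, which vessels and mesoderm also express, gave 13.1 of the knockout value while Foxd3 was listed at 0 there, and 1 of the 5 reached 1 RPKM in either library. On day 10 the order turned, with 17.2 RPKM in the knockout and 33.0 in wild type, and 4 and 3 markers at 1 RPKM. Endoderm markers summed to 18.2 against 6.91 RPKM on day 6 and 45.9 against 48.7 on day 10, and neuroectoderm markers to 117 against 201 and 182 against 190 RPKM. The part of these cell types in the levels of the 8 genes was not tested.

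The second comparison asked how the knockout culture differs when Dkk is present. On day 6 all 8 genes were lower with Dkk, and 7 of the 8 were at least 2-fold lower (median log2 ratio -3.63) against 3.57% of all genes compared. On day 10, 6 of 8 were at least 2-fold lower (median -1.31), against 5.23% of all genes. Of these lower genes, 5 of the 7 on day 6 and 4 of the 6 on day 10 passed the filter through knockout libraries without Dkk alone. They had to be below 1 RPKM with Dkk, so the counts and medians are a description. This comparison shares the knockout libraries with the one before, so that genes high there tend to be low here, and it gives no separate count of agreement.

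Among the early regulators, Foxc1 was at 0.42 RPKM with Dkk against 13.6 without on day 6, which is 3.10% of the level in the knockout alone (interval 2.01% to 4.56%), and at 1.15 against 9.07 RPKM on day 10, 12.7% (interval 10.9% to 14.7%). Foxc2 was at 0.34 RPKM with Dkk against 21.3 without on day 6, 1.60% (interval 0.776% to 3.01%), and at 0.82 against 3.69 RPKM on day 10, 22.2% (interval 16.5% to 29.8%). Mesp2 was at 0.39 RPKM with Dkk against 1.05 without on day 6, from about 8 against 21 reads, 37.1% (interval 14.2% to 87.0%), short of the 2-fold limit on the log2(RPKM + 0.5) scale. On day 10 Mesp2 was at 0.08 RPKM with Dkk against 0.14 without, from about 6 against 3 reads, with an interval of 12.6% to 364%. The forkhead genes were thus far apart between the libraries on both days, while the border gene rested on few reads and did not reach the 2-fold limit on either day.

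Among the genes of the forming somite, Tcf15 was at 0.81 RPKM with Dkk against 44.9 without on day 6, 1.8% of the level in the knockout alone (interval 0.736% to 3.41%). On day 10 it was at 0.92 against 1.08 RPKM, 85.2%, and its interval of 40.8% to 172% holds no difference as well as one of 2-fold. Meox1 was at 1.44 RPKM with Dkk against 162 without on day 6, 0.891% (interval 0.616% to 1.25%), and at 1.5 against 4.22 RPKM on day 10, 35.5% (interval 27.3% to 47.0%). With Dkk, Meox1 on day 10 was 1.04 times its day 6 level (interval 0.710 to 1.58), while in the knockout alone it differed widely between the days.

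Meox2 was listed at 0 with Dkk against 4.49 RPKM without on day 6, and was at 0.28 against 2.69 RPKM on day 10, 10.4% (interval 6.16% to 16.5%). Tbx18 was at 0.04 RPKM with Dkk against 2.03 without on day 6, from about 2 against 98 reads, 1.97% (interval 0.237% to 7.36%), and at 0.26 against 1.48 RPKM on day 10, 17.6% (interval 11.9% to 25.9%). Pax1 was listed at 0 with Dkk against 3.08 RPKM without on day 6, and was at 0.37 against 1.56 RPKM on day 10, 23.7% (interval 14.8% to 37.4%). The 3 genes were close to the floor of detection with Dkk on day 6 and above it on day 10, where the Dkk library is also the deepest of the SFEB libraries. Sums of the marker lists on day 6 were, with Dkk against without, 1.81 against 6.70 RPKM for endothelium (1 of 5 markers at 1 RPKM in either, Emcn at 0 with Dkk), 1.02 against 4.40 for heart and proepicardium (0 and 1 of 5, Upk3b at 0 in both), 2.52 against 13.6 for neural crest (1 of 5 in either), 14.7 against 18.2 for endoderm (5 and 4 of 5) and 196 against 117 for neuroectoderm (5 of 5 in either). On day 10 they were 3.89 against 12.6 RPKM for endothelium (1 and 4 of 5), 16.9 against 30.8 for heart and proepicardium (2 of 5 in either), 47.1 against 17.2 for neural crest (3 and 4 of 5), 168.8 against 45.9 for endoderm (5 and 4 of 5) and 246 against 182 for neuroectoderm (5 of 5 in either). On day 10 the sums of endoderm, neural crest and neuroectoderm were thus higher with Dkk and those of endothelium and heart lower. The higher sums rested on few genes. Ttr gave 155 RPKM of the endoderm sum with Dkk, while Afp (8.97 against 23.8 RPKM) and Apoa1 (1.84 against 7.24) were lower. Of neural crest markers, 2 were at least 2-fold higher, with Tfap2b at 37.6 against 3.25 RPKM, and 2 lower, Foxd3 and Ets1. Of neuroectoderm markers, Otx2 was higher (73.6 against 7.10 RPKM) and Pax6 lower (14.9 against 29.6). The part of these cell types in the lower levels of the 8 genes was not tested.

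**Figure D3:**
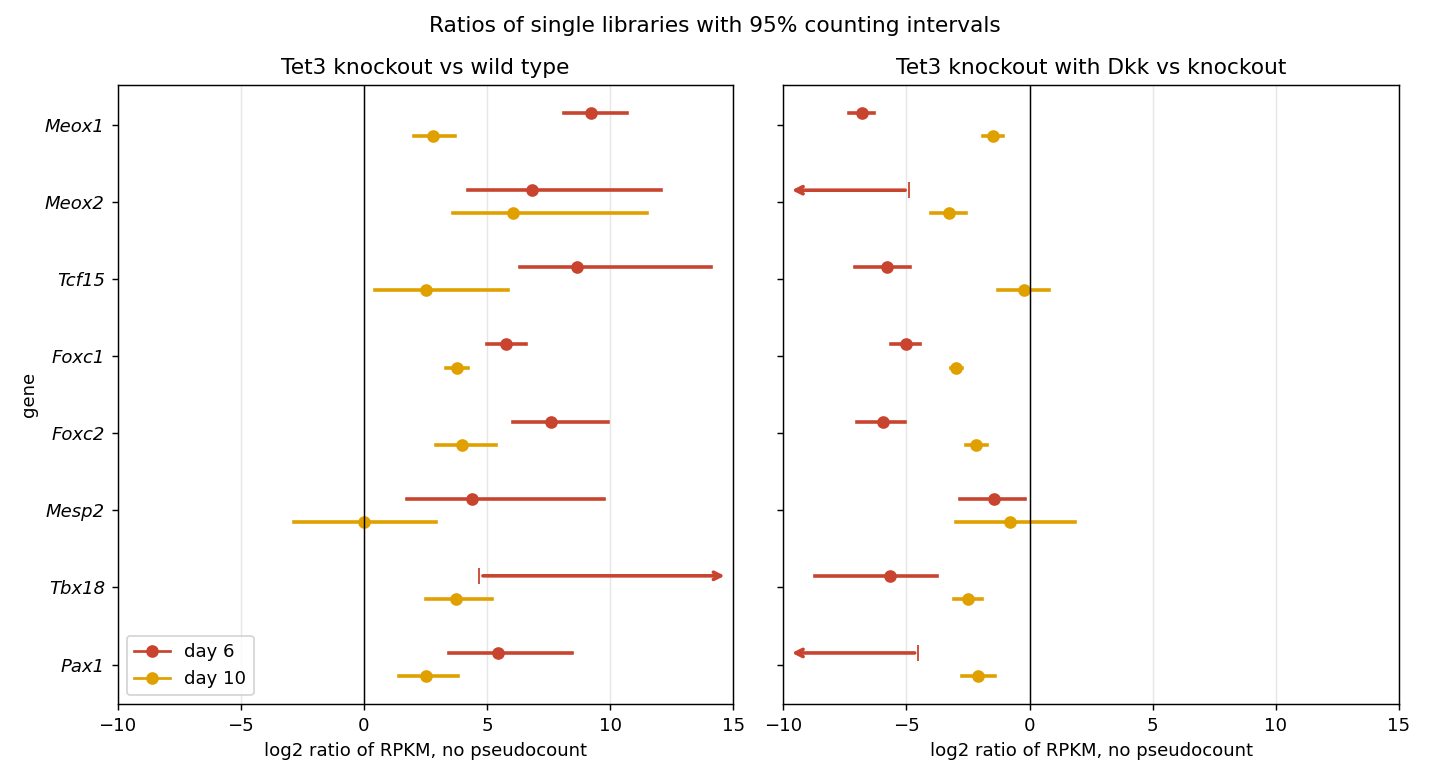
Log2 ratio of RPKM, with no pseudocount, for each of the 8 genes in the knockout against wild type (left) and in the knockout with Dkk against the knockout (right), with day 6 in red and day 10 in yellow. Points are ratios of single libraries, bars are 95% Clopper-Pearson intervals from estimated reads (counting error only), and arrows start at the finite end of the interval where 1 library is listed at 0. Every ratio on the left but that of Mesp2 on day 10 has its interval above 0, and every ratio on the right but those of Tcf15 and Mesp2 on day 10 has its interval below 0.

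Against wild type, some of the genes were higher in the knockout with Dkk. By the 2-fold rule, 2 of 8 were higher on day 6, against 1.58% of all genes, and 1 of 8 on day 10, against 4.59%. Meox1 was at 1.44 RPKM in the knockout with Dkk against 0.27 in wild type on day 6, from about 34 against 6 reads (5.33-fold, interval 2.26 to 15.9), and at 1.5 against 0.60 RPKM on day 10 (2.50-fold, interval 1.47 to 4.65), on day 10 short of the limit on the log2(RPKM + 0.5) scale. Tcf15 was at 0.81 against 0.11 RPKM on day 6, from about 8 against 1 reads (7.36-fold, interval 1.03 to 342), and at 0.92 against 0.19 RPKM on day 10, from about 33 against 2 reads (4.84-fold, interval 1.29 to 43.3). Of the others on day 10, Foxc1 was at 1.15 against 0.66 RPKM (1.74-fold, interval 1.25 to 2.44) and Foxc2 at 0.82 against 0.23 RPKM (3.57-fold, interval 1.68 to 9.29), while the intervals of Tbx18 (0.974 to 6.57) and Pax1 (0.628 to 3.42) held 1.

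The only test this design allows is an additive limma model on all 10 libraries, with a level for each culture and day and 1 effect each of knockout, Dkk and overexpression. It takes an effect as equal on both days, so its spread is the disagreement of the days, with 3 residual degrees of freedom, and days are not replicates. Of the 8 genes, limma called Foxc1 alone for the knockout (log2 3.64, SE 0.42, adjusted p = 0.0452, higher in 2 of 2 pairs of libraries), against 0.211% of 13757 genes called. The adjusted p of Foxc1 from limma ranged from 0.0125 to 0.238 over 7 alternative settings and missed 0.05 in 5 of them. The other adjusted p from limma were 0.0581 for Meox2 (log2 2.89, SE 0.38), 0.0817 for Tbx18 (2.02, SE 0.34), 0.103 for Foxc2 (3.84, SE 0.77), 0.110 for Pax1 (2.04, SE 0.43), 0.156 for Meox1 (4.91, SE 1.25), 0.211 for Tcf15 (3.71, SE 1.12) and 0.457 for Mesp2 (0.75, SE 0.42). The genes with the highest day 6 levels, Meox1 and Tcf15, had the largest standard errors, since their ratios of the 2 days differed most.

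For Dkk in the knockout, limma called 0 of the 8 genes, against 0.131% of all genes, and 6 of the 8 had an unadjusted p under 0.05, as had 781 of 13757 genes. Foxc1 was nearest to the threshold (log2 -3.24, SE 0.42, adjusted p = 0.0700 by limma, range over alternatives 0.0259 to 0.619), followed by Meox2 (-2.68, SE 0.38, adjusted p = 0.104, range 0.0665 to 0.581). For overexpression, limma called 0 of the 8, against 0.0945% of all genes, and Foxc1 alone (log2 -1.10, SE 0.42) had an unadjusted p under 0.05, as had 2702 of 13757 genes. The limma calls for Dkk and knockout share the knockout libraries.

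Between the days of SFEB culture, the knockout differed most in Meox1 and Tcf15 and least in Tbx18, Foxc1 and Meox2, as shares of the day 6 level. On day 10 against day 6, Meox1 in the knockout was at 2.61% of its day 6 level (interval 2.11% to 3.16%), Tcf15 at 2.41% (interval 1.28% to 4.42%), Mesp2 at 13.3% (interval 2.58% to 45.2%) and Foxc2 at 17.3% (interval 14.1% to 21.4%). Pax1 was at 50.6% (interval 34.4% to 73.6%), Meox2 at 59.9% (interval 43.6% to 81.6%), Foxc1 at 66.8% (interval 60.0% to 74.5%) and Tbx18 at 72.9% (interval 52.8% to 98.7%). By the 2-fold rule 4 of 8 were lower on day 10, against 8.01% of all genes, whose median was 0.16 higher on day 10. Mesp2, 1 of the 4 lower genes, passed the filter through the day 6 knockout alone. In wild type 0 of 8 passed the 2-fold limit in either direction between the days, against 16.9% of all genes higher and 7.98% lower on day 10. In the knockout with Dkk it was again 0 of 8, against 17.6% higher and 6.81% lower. The 8 genes were at 0.66 RPKM or less in wild type and 1.5 or less with Dkk, where the added 0.5 RPKM shrinks ratios. These counts of 0 are thus no sign of equal levels. Without the added 0.5, Foxc1 on day 10 was 2.64 times its day 6 level in wild type (interval 1.45 to 5.12). With Dkk, Foxc1 was 2.74 times (interval 1.83 to 4.28) and Tbx18 6.5 times (interval 1.68 to 54.9), while Mesp2 was at 20.5% (interval 6.14% to 70.6%).

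The order of levels per length changed with this. On day 6 the order in the knockout was Meox1, Tcf15, Foxc2, Foxc1, Meox2, Pax1, Tbx18 and Mesp2, and on day 10 it was Foxc1, Meox1, Foxc2, Meox2, Pax1, Tbx18, Tcf15 and Mesp2. On day 10 Meox1 (4.22 RPKM) and Foxc2 (3.69 RPKM) were neighbours, as were Pax1 (1.56 RPKM) and Tbx18 (1.48 RPKM), and with 1 library these orders have no replicate check.

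The third comparison was between Tet3-overexpressing and control cells in FBS culture. Only Meox1, Tcf15, Foxc1 and Foxc2 reached 1 RPKM in at least 1 FBS library. Tcf15 stood out, with 38.1 RPKM in overexpressing cells against 9.51 in control on day 4 (4.00-fold, interval 3.55 to 4.52) and 10.99 against 2.16 RPKM on day 7 (5.09-fold, interval 3.76 to 6.94). It was the 1 gene of the 4 at least 2-fold higher on day 4, against 1.72% of 12387 genes compared, and again on day 7, against 6.96%. Meox1, Foxc1 and Foxc2 were at lower levels with overexpression than in control on day 7, 3 of 4 genes, against 11.1% of all genes. These 3 genes passed the filter in FBS culture through the day 7 control library alone, so that they had to be high there, and their count is a description from which nothing is read.

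Meox1 was at 0.12 RPKM with overexpression against 0.13 in control on day 4 and at 0.62 against 2.55 RPKM on day 7, 24.3% of control (interval 15.1% to 37.4%). Foxc1 was at 0.21 against 0.61 RPKM on day 4, 34.4% (interval 21.7% to 51.3%), and at 0.49 against 2.41 RPKM on day 7, 20.3% (interval 14.9% to 27.4%). Foxc2 was at 0.56 against 0.26 RPKM on day 4 (2.15-fold, interval 1.29 to 3.64) and at 0.29 against 1.60 RPKM on day 7, 18.1% (interval 9.83% to 32.3%). The 3 genes were all low on day 4 and all lower with overexpression on day 7, and Foxc2 had the opposite order of libraries on day 4.

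Mesp2, below the filter, was at 0.78 RPKM with overexpression against 0.64 in control on day 4 (1.22-fold, interval 0.771 to 1.90) and at 0.68 against 0.21 RPKM on day 7 (3.24-fold, interval 1.54 to 7.48). Meox2 was listed at 0 in both day 4 libraries and with overexpression on day 7, where control had 0.16 RPKM from about 10 reads. Tbx18 stayed between 0.07 and 0.22 RPKM and Pax1 between 0.13 and 0.19 RPKM in the 4 libraries. Differences in these 3 genes were not detectable at this depth apart from Tbx18 on day 4, at 0.22 RPKM with overexpression against 0.10 in control (2.20-fold, interval 1.14 to 4.11), and Meox2 on day 7.

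**Figure D4:**
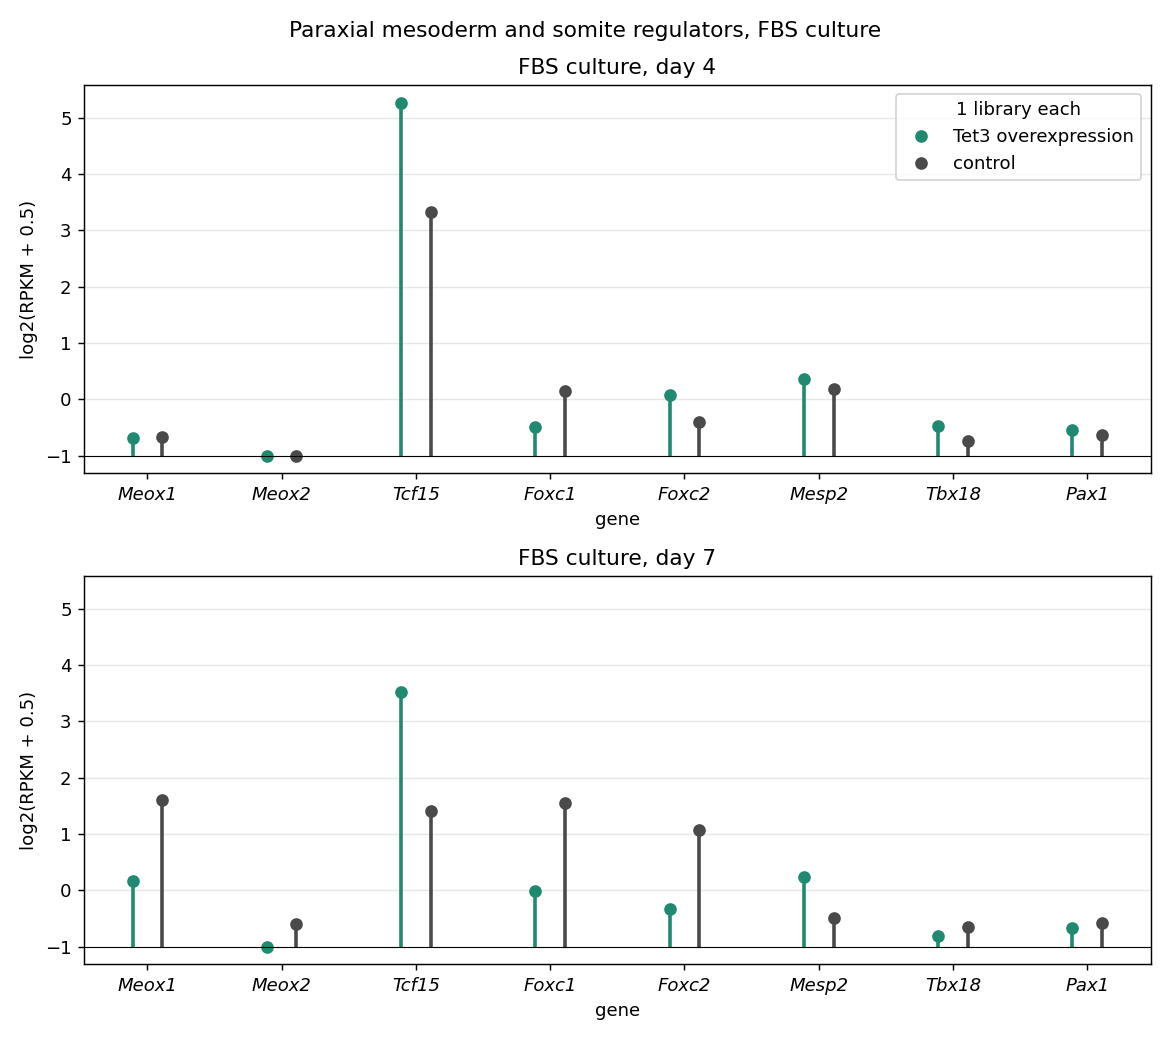
Levels of the 8 genes in FBS culture as log2(RPKM + 0.5), with day 4 in the upper and day 7 in the lower panel. Each point is 1 library (green, Tet3-overexpressing, grey, control), and stems start at the value of a gene listed at 0. Tcf15 is higher with overexpression on both days, while Meox1, Foxc1 and Foxc2 are higher in control on day 7.

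Between the FBS days, Meox1, Foxc1 and Foxc2 were higher and Tcf15 lower in control on day 7 than on day 4. Meox1 was 19.6 times its day 4 level (interval 10.9 to 37.0), Foxc2 6.15 times (interval 4.12 to 9.47) and Foxc1 3.95 times (interval 3.27 to 4.78), which made 3 of 4 genes at least 2-fold higher, beside 11.5% of all genes. Their direction was fixed by the filter, which they passed through the day 7 control library alone. Tcf15 was at 22.7% of its day 4 level (interval 16.9% to 30.0%), and it was the 1 of 4 that was lower, against 8.71% of all genes. In overexpressing cells Tcf15 was again the 1 of 4 that was lower, at 28.9% (interval 24.4% to 33.8%), against 1.2% of all genes. Meox1 in overexpressing cells was 5.17 times its day 4 level (interval 2.04 to 15.3) from about 24 against 6 reads, and Foxc1 2.33 times (interval 1.46 to 3.94), both under the 2-fold limit on the log2(RPKM + 0.5) scale. The sums of cardiac and proepicardial markers in these libraries on day 7 were 1.61 RPKM with overexpression against 38.2 in control (0 and 4 of 5 markers at 1 RPKM), those of endothelial markers 19.7 against 100.3 (4 and 5 of 5), those of neural crest markers 9.03 against 23.2 (2 and 1 of 5) and those of endoderm markers 25.1 against 162 (4 and 5 of 5). Neuroectoderm markers ran the other way, at 75.1 RPKM with overexpression against 21.4 in control (4 and 2 of 5), as did the ES cell markers given above. Within the neural crest list, Ets1 gave 22.1 RPKM of the control sum and was at 5.27 with overexpression. Foxd3 was instead higher with overexpression, at 3.15 against 0.68 RPKM. The part of these cell types in the levels of the 8 genes was not tested.

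Genes of neighbouring steps and tissues were taken from 6 lists. Of 16 presomitic mesoderm and segmentation clock genes, all past the filter in SFEB culture, on day 6 the knockout had 10 at levels at least 2-fold higher and 0 lower (median log2 ratio 1.52). Tbx6, Msgn1, Mesp1, Hes7 and Ripply2, 5 of these 10, passed the filter through the day 6 knockout alone, and so had to be high there. Of the genes higher on day 6 in the lists that follow, 4 of 11 somite and sclerotome genes, 1 of 1 dermomyotome and myogenic gene, 1 of 2 intermediate mesoderm genes, 2 of 8 lateral plate genes and 1 of 2 limb and craniofacial genes passed through knockout libraries without Dkk alone, so that the counts and medians of all these lists are a description. On day 10, 0 were higher and 2 lower (median 0). Hes7, an oscillating repressor of the clock, was at 3.51 RPKM in the knockout on day 6 and listed at 0 in wild type, and on day 10 it was at 0.09 RPKM in the knockout and again at 0 in wild type. T, the T-box factor of the primitive streak and tail bud, was at 37.2 RPKM in the knockout against 3.64 in wild type on day 6 and at 2.19 against 7.52 RPKM on day 10. Cdx2, a homeobox factor of the posterior body, was at 20.4 against 0.82 RPKM and at 0.34 against 1.89 RPKM on these days. Dll3, a Notch pathway gene of the clock, was at 13.8 against 2.99 RPKM on day 6 and at 22.2 against 10.9 RPKM on day 10. T and Cdx2 thus had opposite orders of the libraries on the 2 days, as none of the 8 somite regulators had.

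Of 15 somite and sclerotome genes past the filter (16 listed), 11 were at least 2-fold higher and 0 lower on day 6 (median 1.54), and 7 and 0 on day 10 (median 0.47). Aldh1a2, which makes the retinoic acid of the somites, was at 74.2 RPKM in the knockout against 0.39 in wild type on day 6 and at 77.7 against 0.70 RPKM on day 10. Cer1, a secreted antagonist of Nodal and BMP signals, was at 12.4 against 0.22 RPKM on day 6 and 0.37 against 0.91 RPKM on day 10. Foxd1, a forkhead factor, was at 7.09 against 1.43 RPKM and Twist1, a factor of mesenchyme, at 13.8 against 3.18 RPKM on day 10. Aldh1a2 was thus as high in the knockout on day 10 as on day 6, while Cer1 was far lower there on day 10.

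Dermomyotome and myogenic genes, of which 6 of 10 passed the filter, had 1 higher and 2 lower on either day (medians -0.29 and 0.00). Dmrt2, a factor of the dermomyotome, was at 15.9 RPKM in the knockout against 0.13 in wild type on day 6. En1, which also marks the midbrain and hindbrain border, was at 2.73 against 38.5 RPKM on day 6, and Pax7, which the dorsal neural tube expresses too, was at 2.74 against 11.6 RPKM. On day 10 Myog, the muscle regulator myogenin, was at 2.96 RPKM in the knockout and listed at 0 in wild type. Pax3 was at 7.25 against 18.1 RPKM and Pax7 at 3.68 against 9.07 RPKM on that day, and both are also genes of the dorsal neural tube. Pax7 was thus lower in the knockout on both days, while Pax3 was at 11.3 against 10.9 RPKM on day 6 and En1 at 4.01 against 3.65 RPKM on day 10. Dmrt2 and Myog each passed the filter through 1 knockout library alone, that of day 6 for Dmrt2 and that of day 10 for Myog.

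Of intermediate mesoderm genes, 5 of 8 passed the filter, with 2 higher and 2 lower on day 6 (median 0.91) and 3 higher and 0 lower on day 10 (median 1.13). Osr1, an early regulator of kidney mesoderm, was at 1.49 RPKM in the knockout on day 6 and listed at 0 in wild type, and at 3.14 against 0.04 RPKM on day 10. Lhx1 was at 7.17 against 1.39 RPKM and 27.6 against 12.4 RPKM on these days. Pax2, shared by kidney and midbrain, was at 0.93 against 9.23 RPKM on day 6, and its relative Pax8 at 3.36 against 0.63 RPKM on day 10. Osr1 was thus higher in the knockout on day 10 than on day 6, unlike the 8 somite regulators.

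Lateral plate and limb mesoderm genes, 9 of 10 past the filter, had 8 higher and 0 lower on day 6 (median 1.57) and 5 and 0 on day 10 (median 1.15). Gata6 was at 4.18 RPKM in the knockout against 0.40 in wild type, Hand2 at 1.43 against 0.04 and Foxf1 (listed as Foxf1a) at 1.64 against 0.18 RPKM on day 6. On day 10 Bmp4 was at 6.60 against 1.02 RPKM, Twist2 at 1.67 against 0.07 and Prrx1 at 5.20 against 1.31 RPKM. Of limb and craniofacial mesenchyme genes, 4 of 6 passed, with 2 and 1 higher and 0 lower (medians 0.49 and 0.26). Prrx2 was at 22.3 RPKM in the knockout against 2.86 in wild type on day 6 and at 3.0 against 0.31 RPKM on day 10, and Alx1 at 1.86 against 0.39 RPKM on day 6. Msx1 was at 1.0 against 2.08 RPKM on day 6 and 0.71 against 0.50 on day 10, and Msx2 at 0.85 against 1.55 RPKM on day 10. Of all genes compared, 2.18% were at least 2-fold lower on day 6 and 1.96% on day 10, beside the shares of higher genes given above.

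With Dkk, on day 6, 9 of 16 presomitic genes were at least 2-fold lower than in the knockout and 1 was higher, Lfng. Of somite and sclerotome genes 10 of 15, of lateral plate genes 6 of 9 and of limb and craniofacial genes 2 of 4 were lower and 0 higher. Intermediate mesoderm had 3 lower and 2 higher of 5, and dermomyotome and myogenic genes 1 lower and 2 higher of 6. Of all genes compared, 3.57% were lower and 2.18% higher. Of the lower genes, 4 of 9 presomitic, 4 of 10 somite and 2 of 6 lateral plate genes passed the filter through knockout libraries without Dkk alone, as did 1 of 3 intermediate mesoderm, 1 of 2 limb and craniofacial and 1 of 1 dermomyotome and myogenic genes. These had to be high there, so all these counts are a description. On day 10 the presomitic list had 0 lower and 2 higher, Rspo3 and Wnt3a. The somite and sclerotome list had 6 lower and 0 higher, and the lateral plate list 5 lower and 0 higher. Intermediate mesoderm had 4 lower and 0 higher, dermomyotome and myogenic genes 1 lower and 2 higher, and limb and craniofacial genes 0 lower and 1 higher. Of all genes compared, 5.23% were lower and 1.7% higher on day 10. Of the genes lower there, 3 of 6 somite and 1 of 5 lateral plate genes passed through knockout libraries without Dkk alone. So did 1 of 4 intermediate mesoderm and 1 of 1 dermomyotome and myogenic genes. Of the 2 higher presomitic genes, 1 passed through libraries with Dkk alone. Lfng, Rspo3 and Wnt3a were chosen after their values were seen. T was at 18.0 RPKM with Dkk against 37.2 without on day 6, and Aldh1a2 at 1.41 against 74.2 RPKM on day 6 and 2.15 against 77.7 on day 10.

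In FBS culture the lists differed in direction. On day 4, 5 of 12 presomitic genes past the filter were at least 2-fold lower and 1 higher with overexpression (median -0.86), against 3.47% and 1.72% of all genes. T was at 1.44 RPKM in overexpressing cells against 69.2 in control on day 4, and at 12.5 against 4.72 RPKM on day 7. On day 7 the presomitic list had 6 higher and 2 lower (median 1.05), the somite and sclerotome list 2 higher and 4 lower of 10 (median -0.70), the lateral plate list 9 of 9 lower (median -3.51) and the limb and craniofacial list 4 of 4 lower (median -2.67). Hand2 was at 2.58 RPKM with overexpression against 70.3 in control on day 7 and Twist1 at 2.94 against 22.3 RPKM. The intermediate mesoderm list had 2 higher and 1 lower of 4 (median 0.80). Of all genes compared, 6.96% were higher and 11.1% lower with overexpression on day 7. Of the genes lower on day 7, 3 of the 9 lateral plate genes, 1 of the 4 limb and craniofacial genes and 1 of the 4 somite and sclerotome genes passed the filter through the day 7 control library alone. So did the 1 lower intermediate mesoderm gene. Of the presomitic genes, 2 of the 5 lower on day 4 and 1 of the 2 lower on day 7 passed through control libraries alone. Of the 6 higher on day 7, 1 passed through the day 7 overexpression library alone. The filter fixed the direction of these genes, so all these list counts are a description. Meox1, Foxc1 and Foxc2 were lower with overexpression on day 7, as were the lateral plate and limb lists. The filter fixed the direction of these 3 genes, so nothing is read from this. Tcf15 was higher with overexpression on day 7, as were T, most called presomitic genes and the intermediate mesoderm median. On day 4 Tcf15 was higher with overexpression (38.1 against 9.51 RPKM), while T and most called presomitic genes were lower.

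**Figure D5:**
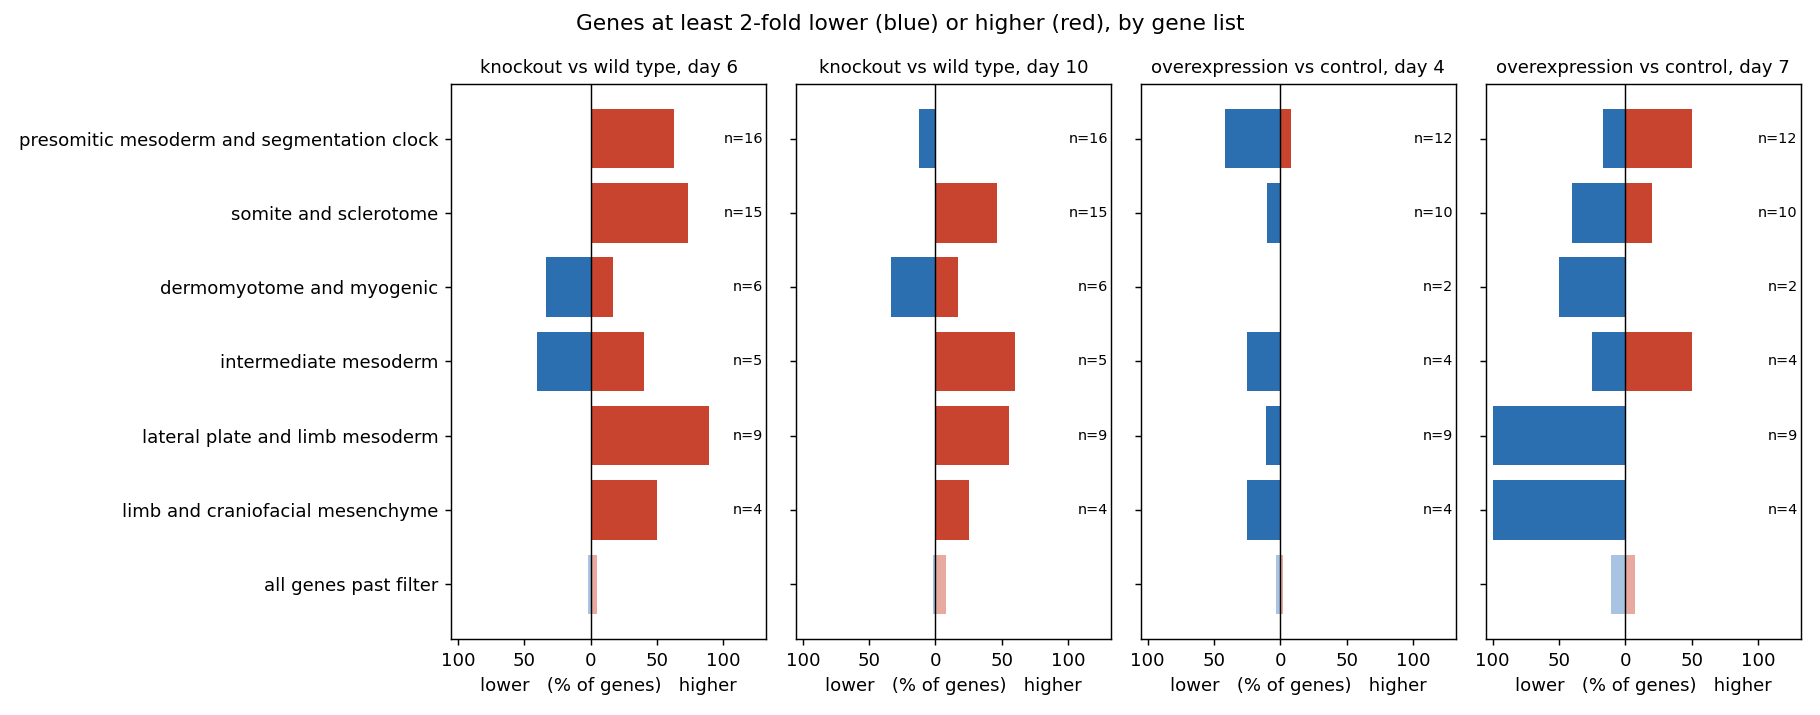
Share of the genes past the filter (n beside each bar) that were at least 2-fold lower (blue, to the left) or higher (red, to the right), for 6 gene lists and, in pale colours, all genes past the filter. Panels are knockout against wild type on days 6 and 10 and overexpression against control on days 4 and 7. On day 6, 10 of 16 presomitic and 11 of 15 somite genes are higher in the knockout, against 0 and 7 on day 10, and the 9 lateral plate and 4 limb genes past the filter are all lower with overexpression on day 7.

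The genes with the most similar pattern to each of the 8 were searched among 13756 others by the Pearson correlation over 10 libraries. Meox1 was nearest to Arhgap24 (0.97), Lpar3 (0.97), a receptor for lysophosphatidic acid, and Dmrt2 (0.97). Foxc2 was nearest to Tbx1 (0.97), a T-box factor of pharyngeal mesoderm, Meox1 (0.96) and Arg1 (0.95). Arg1, which encodes arginase, was at 98.8 RPKM in the knockout against 0.27 in wild type on day 6 and 11.4 against 0.77 RPKM on day 10. Foxc1 was nearest to Aldh1a2 (0.97), Meox2 (0.96) and Osr1 (0.95). Meox2, Tbx18 and Pax1 were nearest to one another (0.98), then Meox2 and Tbx18 to Hoxb9 (0.97 for either), a posterior Hox gene, and Pax1 to Foxd2 (0.97). Tcf15 was nearest to 1200014J11Rik (0.95), Mesp2 (0.93) and Sema3e (0.93), which encodes a secreted semaphorin. Mesp2 was nearest to Tcf15 (0.93), Comp (0.93), which encodes a cartilage matrix protein, and 1200014J11Rik (0.92). Sema3e was at 5.20 RPKM in the knockout against 0.51 in wild type on day 6, and at 8.29 RPKM with overexpression against 7.07 in control on day 4 and 4.34 against 0.95 RPKM on day 7. The levels of 1200014J11Rik varied little, between 11.9 and 15.7 RPKM over the 10 libraries, so that its high correlation goes with a small range.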

How the data were processed

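RNA of 10 libraries was measured, and each library was placed in its group by its title. Per the labels' protocols, libraries were made from column-purified total RNA and read on a SOLiD sequencer. The authors deposited 1 table of RPKM values rounded to 2 decimals. Counting with HTSeq and build mm9 are named in the submitters' processing notes. The aligner, annotation and strand setting, and how multiply matched reads were handled, were not given in the sources used here, so values of overlapping genes and close paralogs are uncertain. The 10 most abundant genes held 4.88% to 9.40% of a library's summed RPKM.

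RPKM values are no counts, so no count model was used. The depth of each library was estimated from the steps between low RPKM values of 4318 genes with 1 transcript in GENCODE vM21, used for lengths only. With these totals, 61.8% to 75.9% of values lay within 0.15 read of a whole number, a share that the choice itself raises. For the knockout with Dkk on day 10 a total of 75100000 gave a closer match than the 37000000 used. Reads per gene came from RPKM, depth and the longest transcript. Ratios were log2(RPKM + 0.5) of the deposited values, which understates changes of low genes, with a filter of 1 RPKM in at least 1 library of the culture. Clopper-Pearson intervals (95%) used the estimated reads. The additive model was fitted with limma 3.58.1 in R 4.3.3 with a trended prior, and adjusted by Benjamini-Hochberg over 13757 genes. The other steps used Python 3.11.15 and scipy 1.17.1. Depth, intervals and limma were tested on simulated data.

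The 8 genes, the lists and the tests were chosen with earlier results of these data known. Named genes of a list were the 3 with the largest log2 ratio, in size, of knockout against wild type on each day, and the genes nearest in pattern were the 3 with the highest correlation. Genes named outside this rule are said to be so, or are values given in another comparison of a gene so named. One gene of the somite and sclerotome list that the rule names is not reported here. Tfap2a, Tfap2b and Foxf1 were matched through older symbols. Alternatives were pseudocounts of 0.1 and 1, a filter of 5 RPKM or none, TPM scaling, median-ratio scaling, an added limit on the counting interval, and, for limma, libraries of 1 culture alone and no trend. TPM scaling moved the median log2 ratio of all genes past 0.1 in size for the knockout with Dkk against the knockout on day 10 (-0.10) and for overexpression on day 4 (-0.13). It did so too for day 10 against day 6 in wild type (from 0.09 to 0.18). In the knockout that median, already past 0.1, went from 0.16 to 0.26.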

Additional observations from a re-analysis of the deposited data

Results flagged for a closer look

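Several of the 8 genes moved in opposite directions under the same contrast, each with a counting interval away from 0. Each such difference rests on single libraries, and the difference was not tested. Values are log2(RPKM + 0.5) differences.

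On day 10 against day 6, 5 genes were lower in the knockout and higher in the knockout with Dkk. Meox2 had 0.64 in the knockout with Dkk and -0.65 in the knockout. Foxc1 had 0.84 in the knockout with Dkk, -0.56 in the knockout and 0.63 in wild type. Foxc2 had 0.65 in the knockout with Dkk and -2.38 in the knockout. Tbx18 had 0.49 in the knockout with Dkk, -0.35 in the knockout and 0.29 in wild type. Pax1 had 0.80 in the knockout with Dkk and -0.80 in the knockout. The median of all genes was itself higher on day 10, by 0.14 in the knockout with Dkk, 0.16 in the knockout and 0.09 in wild type. The day 10 library of the knockout with Dkk is the deepest of the SFEB libraries, and the part of depth in these values was not tested.

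In FBS culture Foxc2 differed by 0.48 with overexpression on day 4 and by -1.41 on day 7.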

How the results depend on the processing

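No paired analysis was possible because the labels give no replicate numbers and 1 library for each condition and day. Leaving out a replicate was not possible for the same reason. Of the members' log2 ratios under other pseudocounts and scalings, 403 moved by less than their counting interval and 13 by more, and no called value changed sign.

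Counts of members at 2-fold depended on filter and pseudocount. With a filter of 5 RPKM, 4 members were higher than in wild type in the day 6 knockout and 4 in that of day 10, 4 and 3 were lower with Dkk than without, 0 were lower with overexpression on day 7 and 0 were higher in control on day 7 against day 4, since fewer genes are left. With a pseudocount of 0.1, 4 were higher in the knockout with Dkk than in wild type on day 6 and 4 on day 10, and with a pseudocount of 1, 0 and 0. On day 10 TPM scaling gave 2 there and median-ratio scaling 0. A pseudocount of 0.1 also gave 1 member lower with overexpression on day 4, and, on day 10 against day 6, 3 higher in wild type, 5 higher and 1 lower in the knockout with Dkk, and, on day 7 against day 4, 1 higher in overexpressing cells. TPM scaling gave 3 higher and 1 lower in the knockout with Dkk, and 1 higher in overexpressing cells. The cause of these shifts was not tested.

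The limma model called 29 genes for the knockout, 12 with a pseudocount of 0.1, 14 with 1, 2 with no filter, 253 in SFEB culture alone and 12 with no trend. For Dkk it called 18, 6 with a pseudocount of 0.1, 1 with no filter, 86 in SFEB culture alone and 6 with no trend. For overexpression it called 13, 47 with no filter, 0 in FBS culture alone and 3 with no trend. The knockout call of Foxc1 ended, leaving 0 members, with a pseudocount of 0.1 (adjusted p = 0.0509 by limma), a pseudocount of 1 (0.0502), a filter of 5 RPKM (0.0519), no filter (0.238) and no trend (0.0794). In SFEB culture alone limma called 2 members for the knockout, Foxc1 (adjusted p = 0.0125) and Meox2 (0.0353), and 1 for Dkk, Foxc1 (0.0259). Genes at 1 to 3 reads in a library have wide intervals, and the depth of the knockout with Dkk on day 10 is the least certain.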
